A study of Mus musculus with 8 samples.

Results

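Uncultured tip mesenchyme was compared with uncultured stalk mesenchyme of the embryonic mouse lung, using 4 of the 8 arrays of the series. The 2 tip arrays hold RNA of connective tissue dissected from the ends of lung branches, and the 2 stalk arrays that of the branch shafts. All 4 came from CD1 mice staged e11.5 to 12.5 (days of embryonic development) and were extracted straight after dissection, with no culture, added agent or altered allele named in the labels. Arrays were chosen by these labels alone. The other 4 arrays, of stalk tissue kept in culture for 12 h with or without 400 ng/ml of Wnt1, were left out of the fit. Messenger RNA was amplified in 2 cycles and hybridised to a single-colour Affymetrix array, and each value is a MAS5 signal, a linear brightness for 1 probe set on 1 array. The labels do not state how many embryos or litters went into an array, nor whether replicates were separate pools, so a p-value here reflects how much these arrays varied and nothing beyond them, and that variation may be technical.

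The lung epithelium grows by repeated budding into the mesenchyme around it. Mesenchyme near the tips is known as the source of Fgf10, a growth factor that draws the epithelium outward, while hedgehog and Wnt ligands made by the epithelium act back on the mesenchyme. Airway smooth muscle is known to form around the stalks, behind the advancing tips, and the outer face of the lung is covered by mesothelium, which lies close to the tips.

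The arrays were of like brightness after the authors' scaling. The median signal ran from 76.5 to 99.8 and the trimmed mean was 500.0 on each of the 4 arrays. For Actb, the signal at the 3' end over that at the 5' end, which follows RNA length, was 3.65 and 3.84 in tip and 4.52 and 2.02 in stalk, so that stalk replicate 2 was the lowest. The same array had the dimmest hybridisation controls, at 3684 against 7418 to 7899 on the other 3. Across genes, which are not independent replicates, the 2 tip arrays correlated at r = 0.966 and the 2 stalk arrays at r = 0.966. The closest pair, tip replicate 2 and stalk replicate 1 at r = 0.972, crossed the groups.

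No gene passed the threshold between tip and stalk. Of 13223 genes tested, 0 (0.0%) had an adjusted p under 0.05 by limma with Benjamini-Hochberg adjustment, and the smallest adjusted p was 0.89. An unadjusted p under 0.05 was reached by 730 genes (5.52%), and about 661 would be with no difference at all. Of these, 264 (2.0% of genes tested) had the higher signal in tip and 466 (3.52%) in stalk. That lean towards stalk depended on the settings, since a fit without the intensity trend gave 433 genes higher in tip and 383 in stalk. An exact permutation test of 2 arrays against 2 cannot go below 0.33 and was not run. Leaving out tip replicate 2 gave 18 genes at an adjusted p under 0.05 (limma), among them Acta2, Sox17, Csf1r and Xist, and leaving out stalk replicate 1 gave 20, while leaving out either of the other arrays gave 0. Gene values below are therefore measurements on 4 arrays, and no gene is called changed.

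In most genes the tip and stalk arrays overlapped. Both tip arrays lay above both stalk arrays in 2276 genes (17.2%), and both stalk arrays above both tip arrays in 2307 (17.4%). A fitted difference of at least 2-fold without overlap was found in 181 genes (1.37%) with tip higher and in 144 (1.09%) with stalk higher. Most of those higher in tip were dim: in 146 of the 181 the brighter group had a mean under 200, against 61 of the 144 higher in stalk. Fold changes are of log2(signal + 27), tip minus stalk, which understates the change of dim genes. The median over all genes tested was -0.004. Where a gene had other probe sets that passed the filter, these gave the same direction in 66.2% of 142 probe sets for genes with tip higher at an unadjusted p under 0.05, in 64.5% of 453 for those with stalk higher, and in 56.5% of 10480 over all genes.

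Defining transcription factors of lung mesenchyme, such as Tbx4, Tbx5, Foxf1 and Tcf21, were well above the array medians on all 4 arrays. Of 20 factors listed, 18 passed the filter, 9 above and 9 below 0, with a median of 0.03, and -0.03 without tip replicate 2. Tbx4, a T-box factor of the lung field, was at 2942 and 3793 in tip and 3432 and 4304 in stalk (replicates 1 and 2). Its relative Tbx5 was at 3646 and 4293 in tip and 4340 and 4020 in stalk. The groups overlapped for both genes. Foxf1, a forkhead factor of visceral mesenchyme that responds to hedgehog, was at 1342 and 2248 in tip and 1441 and 1678 in stalk. Tcf21, a helix-loop-helix factor of lung mesenchyme, was at 1373 on tip replicate 1 and between 2394 and 2659 on the other 3 arrays. Prrx1, a homeobox factor of mesenchyme, had the smallest p of the list, with 229.6 and 244 in tip and 443 and 392 in stalk. Both stalk arrays were higher, by a log2 fold change of -0.75 ± 0.27 (SE; limma, unadjusted p = 0.021), but its 3 other probe sets ran from -0.39 to 0.11. Twist1, a helix-loop-helix factor, was dim at 183 and 96 in tip and 52.2 and 84.6 in stalk.

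Several epithelial markers were near the background. Of 13 listed, 3 (Cdh1, Sox2 and Foxa2) did not pass the filter, and 4 of the other 10 had group means under the highest array median. Nkx2-1, the lung epithelial homeobox factor, was at 97.8 and 73.7 in tip and 57.7 and 7.65 in stalk. Epcam, Spint2 and Wnt7b were above the highest array median on all 4 arrays. Epcam was at 167 and 238 in tip and 153 and 136 in stalk. Spint2 was at 574 and 460 in tip and 446 and 406 in stalk. Wnt7b was at 119.5 and 176 in tip and 254 and 128 in stalk. The list had 6 members above and 4 below 0 and a median of 0.19, which turned to -0.05 without tip replicate 1 and -0.15 without stalk replicate 2. The list also holds keratins that mesothelium expresses, among them Krt8 at 1118 and 537 in tip and 486 and 606 in stalk.

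Smooth muscle contractile genes were mostly lower in tip than in stalk. Of 16 listed, 15 passed the filter and 14 lay below 0, with a median of -0.61, and -0.28 without tip replicate 1. In 9 both stalk arrays exceeded both tip arrays, against 17.4% of all genes tested. In 5 the unadjusted p (limma) was under 0.05 with stalk higher, against 3.52% of all genes. Tip was higher without overlap in 0, against 17.2% of all genes. Lists were chosen with earlier results of these data known, so these shares, here and below, describe the lists and are not tests. Members are measured on the same arrays and are not independent of each other. In bulk tissue, fewer cells of a type and less RNA per cell cannot be told apart.

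Acta2, smooth muscle actin and an early marker of the lineage, had a signal of 799.8 and 3160 in tip and 3321 and 4457 in stalk. Tip replicate 1 stood far below the other 3, and tip replicate 2 came within reach of stalk replicate 1. The log2 fold change was -1.26 ± 0.49 (SE; limma, unadjusted p = 0.028), and it was -0.28 without tip replicate 1 and -2.23 without tip replicate 2. This value rests on a probe set that can bind more than 1 transcript by its design suffix, and the gene's other probe sets did not pass the filter. Actg2, the enteric smooth muscle actin, was at 98.7 and 304 in tip and 456 and 525 in stalk, with a log2 fold change of -1.34 ± 0.42 (SE; limma, unadjusted p = 0.0097). Myocd, the transcriptional coactivator that switches on smooth muscle genes, was at 175 and 427 in tip and 549 and 641 in stalk (-1.03 ± 0.37, SE; limma, unadjusted p = 0.019). For both genes the order of the 4 arrays was that of Acta2. Without tip replicate 1 the log2 fold change was -0.64 for Actg2 and -0.45 for Myocd, and without tip replicate 2 it was -2.04 and -1.62.

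Other members showed the gap without a low outlying tip array. Synpo2, an actin-binding protein of contractile cells, was at 140.2 and 139 in tip and 308 and 221 in stalk. Tagln, which binds actin filaments, was at 133 and 123 in tip and 189 and 232 in stalk, and the intermediate filament gene Des was at 148 and 144 in tip and 278 and 225 in stalk. In each of these 3 the groups did not overlap. The mature contractile markers were dim: Cnn1 was at 15 and 71.2 in tip and 105 and 136 in stalk. Myh11, the smooth muscle myosin, was at 5.05 and 48.6 in tip and 101 and 68.1 in stalk, with a log2 fold change of -1.16 ± 0.55 (SE) that became -0.01 once values under the highest array median were raised to it. The widely expressed members differed less: Cald1 was at 13190 and 15142 in tip and 16720 and 12231 in stalk, and Tpm1 at 1230 and 1241 in tip and 1367 and 1640 in stalk. The myosin light chain Myl9 was at 909 and 1543 in tip and 1509 and 1859 in stalk, so that its groups overlapped.

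**Figure D1:**
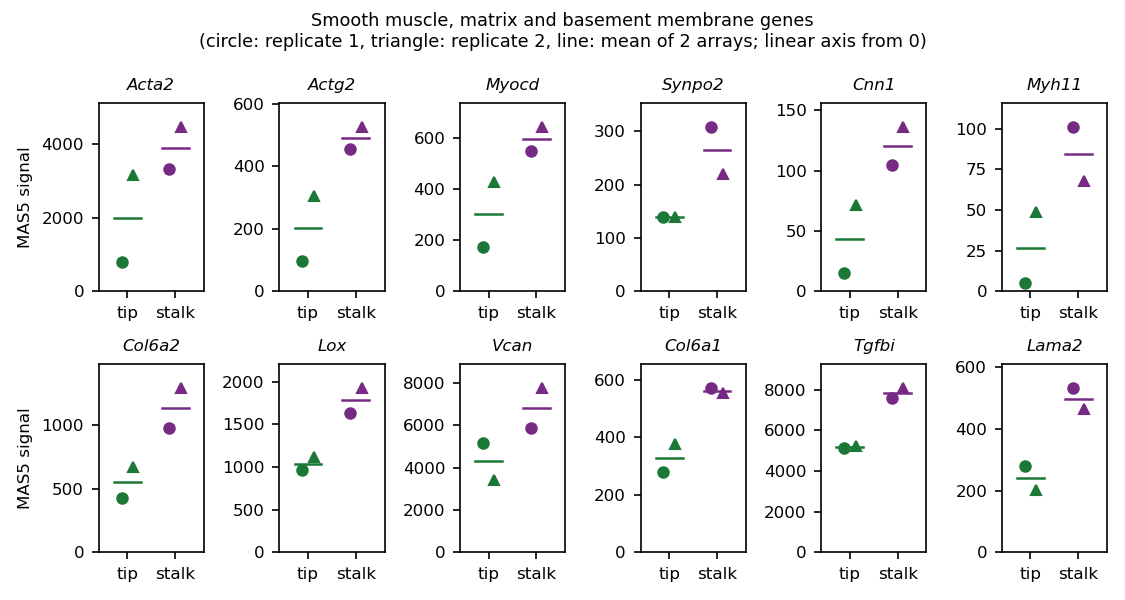
MAS5 signal (linear axis from 0) of 6 smooth muscle genes in the upper row and of 6 matrix, Tgf-beta-responsive or basement membrane genes in the lower row, on the 2 tip and 2 stalk arrays. Circles are replicate 1, triangles replicate 2 and lines group means; for Acta2, Actg2 and Myocd tip replicate 1 is the lowest point, while Tgfbi and Lama2 have close replicates.

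Promoter sequences of this list were read because serum response factor, the partner of myocardin, is known to bind the CArG box, written CC, then bases that are each A or T, then GG. RefSeq promoters (GRCm38.p6) were found for 12 of the 16 genes, and the 250 bases before each start site were searched. Actg2, Myh11, Tagln and Myocd had no promoter in the set used and were not searched. The pattern is its own reverse complement, so both strands are covered. A match with all 6 middle bases A or T occurred in 1 of the 12 genes, Myl9, against 1.62% of 27025 genes. Allowing 1 of the 6 to be another base, 2 of 12 had a match, Acta2 and Myl9, against 9.78% of all genes. Both are shown 5' to 3' on the gene's strand with the matches in capitals, Acta2 from chr19:34255374-34255623 (minus strand, matches 84 and 34 bases before the start site) and Myl9 from chr2:156775214-156775463 (plus strand, matches 161 and 99 bases before it), as the members that hold these letters.
Acta2: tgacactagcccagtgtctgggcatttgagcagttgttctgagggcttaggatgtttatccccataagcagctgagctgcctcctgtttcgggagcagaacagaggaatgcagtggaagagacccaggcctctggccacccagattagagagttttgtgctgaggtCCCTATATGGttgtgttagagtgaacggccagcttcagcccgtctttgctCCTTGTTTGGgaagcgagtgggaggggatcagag
Myl9: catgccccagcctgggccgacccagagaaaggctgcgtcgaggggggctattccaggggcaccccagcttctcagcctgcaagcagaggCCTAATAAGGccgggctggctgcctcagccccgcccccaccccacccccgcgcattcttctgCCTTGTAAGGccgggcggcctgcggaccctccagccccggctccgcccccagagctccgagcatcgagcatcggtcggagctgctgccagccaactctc
A match is a description of letters in this window, and the other members searched may hold the pattern outside it.

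Genes of the interstitial matrix, the fibrous scaffold between mesenchymal cells, lay below 0 in 25 of 27 members tested, with a median of -0.37. Both stalk arrays were higher in 13, against 17.4% of all genes tested. An unadjusted p (limma) under 0.05 with stalk higher was reached by 8, against 3.52% of all genes. Without tip replicate 1 the median was -0.22. The chains of collagen VI, which forms beaded filaments around cells, lay together. Col6a2 was at 429 and 673 in tip and 975 and 1291 in stalk, a log2 fold change of -1.02 ± 0.28 (SE; limma, unadjusted p = 0.0041). Col6a1 was at 280.3 and 377 in tip and 571 and 553 in stalk, and Col6a3 at 95.8 and 318 in tip and 422 and 433 in stalk. In all 3 chains both tip arrays were under both stalk arrays.

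Lox, the enzyme that cross-links collagen and elastin, was at 965 and 1114 in tip and 1637 and 1923 in stalk (-0.76 ± 0.21, SE; limma, unadjusted p = 0.0053), although its other probe set pointed the opposite way, at 0.53. Vcan, a large proteoglycan, was at 5176 and 3413 in tip and 5885 and 7750 in stalk. Its 4 other probe sets ran from -0.52 to 0.75. Mfap4, a microfibril protein, was at 388 and 749.9 in tip and 918 and 1050 in stalk. Col3a1, a fibrillar collagen, was at 17136 and 20496 in tip and 22794 and 17590 in stalk, and the groups overlapped. Col1a1 had no overlap, at 605 and 813 in tip and 965 and 1122 in stalk.

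Of 16 basement membrane genes tested, 7 lay above and 9 below 0, with a median of -0.30. The median was 0.04 without tip replicate 2, 0.05 without stalk replicate 2 and 0.03 with probe sets averaged per gene. Lama2, the laminin chain of muscle and mesenchyme, was at 281 and 203 in tip and 533 and 465 in stalk (-0.98 ± 0.28, SE; limma, unadjusted p = 0.0064). Col4a1, a chain of the common collagen IV network, was at 3696 and 3274 in tip and 4474 and 5600 in stalk (-0.52 ± 0.20, SE), and its other probe set gave -0.53. Col4a2 pointed the same way, at 1028 and 875 in tip and 1122 and 1388 in stalk (-0.39 ± 0.23, SE). The remaining collagen IV chains did not share a direction. Col4a4 was at 393 and 367 in tip and 62.8 and 217 in stalk, and its second probe set gave 0.82. Col4a3, which shares a promoter region with it, was dim at 80 and 60.4 in tip and 12.1 and 16.6 in stalk, both groups under the highest array median. Col4a5, which joins these chains in a network, overlapped at 635 and 426 in tip and 406 and 1117 in stalk (-0.36 ± 0.41, SE). Col4a6 was at 138 and 116 in tip and 80.2 and 67.6 in stalk, but its other probe set gave -0.35.

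Summed signals of endothelial and mesothelial markers differed between tip and stalk in opposite directions, while the macrophage and erythroid sums, given below, overlapped. The summed signal of the 18 endothelial markers was 9622 and 13242 in tip and 15562 and 18275 in stalk. That of the 9 mesothelial markers on the array was 8158 and 5026 in tip and 3853 and 3688 in stalk. The latter sum includes Msln, which did not pass the filter. Tip replicate 1 thus had the lowest endothelial sum, the highest mesothelial sum and the lowest Acta2. The part of these cells in the muscle and matrix differences was not tested. Medians were also taken between arrays with like Fos and Hspa1b signal, given below. The pairs were tip replicate 1 with stalk replicate 2, then tip replicate 2 with stalk replicate 1. In that order the smooth muscle median was -0.70 and -0.16 and the matrix median -0.55 and -0.22.

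Fgf10 was higher in both tip arrays. Its signal was 228 and 433 in tip and 166 and 134 in stalk, a log2 fold change of 0.96 ± 0.36 (SE; limma, unadjusted p = 0.024), and 0.54 without tip replicate 2. Fgf9, a ligand made by mesothelium and epithelium, was at 1423 and 698 in tip and 476 and 1209 in stalk, so the groups overlapped and the sign turned without tip replicate 1 or stalk replicate 1 (-0.12 and -0.27). Fgf7, another mesenchymal ligand, was under the highest array median on all arrays, at 31.6 and 34.2 in tip and 78 and 67.1 in stalk. Fgfr2, whose epithelial form is the Fgf10 receptor, was at 1111 and 1074 in tip and 1132 and 1125 in stalk. Over the 9 ligands and receptors tested, 7 lay above and 2 below 0, with a median of 0.29. An unadjusted p (limma) under 0.05 was reached by 1, against 5.52% of all genes tested. Among 8 genes that respond to Fgf signalling, 5 lay above and 3 below 0, with a median of 0.22 that turned to -0.05 without stalk replicate 1 and -0.02 with probe sets averaged per gene. Etv5, an Ets factor of the response, was at 1226 and 941 in tip and 659 and 907 in stalk (0.46 ± 0.25, SE; limma, unadjusted p = 0.098). Spry2, a feedback inhibitor, pointed the other way at 449.8 and 473 in tip and 480.1 and 592 in stalk. The dim Etv4 overlapped, at 113 and 80.2 in tip and 118 and 33.4 in stalk.

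Among Bmp ligands and their antagonists, 7 of 10 tested lay above 0 and 3 below, with a median of 0.25. Grem1, a secreted antagonist of Bmp ligands, was at 319 and 223 in tip and 85.7 and 123 in stalk. Both tip arrays exceeded both stalk arrays, by 1.18 ± 0.35 (SE; limma, unadjusted p = 0.0076), and by 1.09 with dim values raised to the highest array median. Bmp4, a ligand of distal lung, was nearly level at 2178 and 1950 in tip and 1824 and 1841 in stalk. Fst, which binds activins and Bmps, was at 323 and 211 in tip and 148 and 174 in stalk. Chrdl1, a further antagonist, was dimmer at 133 and 71.5 in tip and 54 and 38 in stalk, and its other probe set gave -0.29. Nog did not pass the filter, with 3.44 and 4.09 in tip and 8.02 and 1.86 in stalk.

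Receptors and response genes of Bmp and Tgf-beta, pooled in a list, had 3 of 11 above and 8 below 0 and a median of -0.16. The 3 above 0 were Id1, Id2 and Id3, at 0.37, 0.53 and 0.19, with overlap for Id2 and Id3. All receptors tested lay below 0. Tgfbi, a matrix protein induced by Tgf-beta, was at 5127 and 5254 in tip and 7578 and 8076 in stalk. Replicates lay close and the groups apart (-0.59 ± 0.18, SE; limma, unadjusted p = 0.0091), and its 3 other probe sets gave -0.88 to -0.43. Bmpr2, the type II Bmp receptor, was at 3047 and 3211 in tip and 4463 and 4723 in stalk (-0.55 ± 0.19, SE; limma, unadjusted p = 0.015), with 2 other probe sets at -0.49 and 0.32. Id1, an immediate Bmp target, was higher in tip at 1369 and 1087 against 967 and 904 in stalk. Of 5 genes listed as Tgf-beta ligands, among them the binding protein Ltbp1, 2 lay above and 3 below 0. Their median was -0.07, and 0.24 without tip replicate 2. Inhba, an activin subunit, was at 228 and 268 in tip and 555 and 385 in stalk (-0.83 ± 0.29, SE), and Tgfb2 at 4271 and 4123 in tip and 5220 and 5726 in stalk. Tgfb1 was dim, at 113 and 91.4 in tip and 52 and 40 in stalk.

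**Figure D2:**
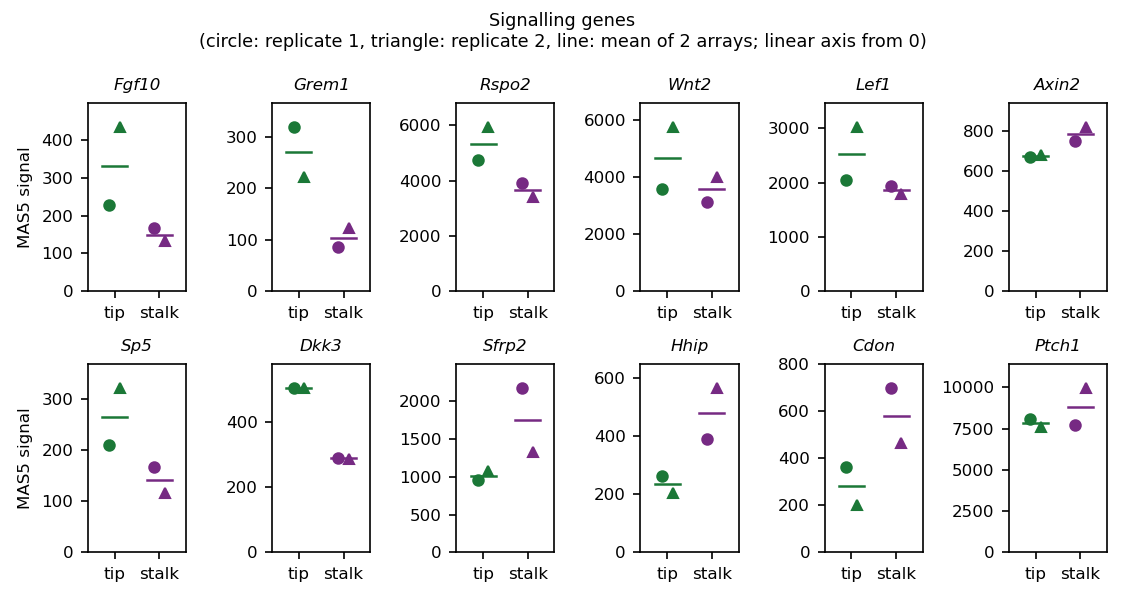
MAS5 signal (linear axis from 0) of 12 genes of the Fgf, Bmp, Wnt and hedgehog pathways on the 2 tip and 2 stalk arrays; circles are replicate 1, triangles replicate 2 and lines group means. Fgf10, Grem1, Rspo2, Sp5 and Dkk3 have both tip points above both stalk points, Sfrp2, Hhip and Cdon have the reverse, and Wnt2 and Ptch1 overlap.

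The Wnt lists leaned slightly to tip. Of 8 Wnt ligands and R-spondins tested, 6 lay above or at 0 and 2 below, with a median of 0.18. Wnt2, the ligand of distal lung mesenchyme, was at 3592 and 5762 in tip and 3136 and 4018 in stalk, and the groups overlapped. Rspo2, a secreted protein that strengthens Wnt signalling, was at 4744 and 5937 in tip and 3904 and 3403 in stalk (0.54 ± 0.20, SE; limma, unadjusted p = 0.024), and its other probe set gave 0.48. Wnt5a, a ligand of branch tips, did not separate, at 149.9 and 160 in tip and 155 and 189 in stalk.

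Targets and feedback genes of Wnt lay above 0 in 9 of 13 members, with a median of 0.21. In 6 both tip arrays were higher, against 17.2% of all genes tested. The best-known reporters pointed in different directions. Lef1, which partners beta-catenin on DNA, was at 2039 and 3017 in tip and 1935 and 1789 in stalk (0.41 ± 0.23, SE; limma, unadjusted p = 0.11), and 0.13 without tip replicate 2. Axin2, the feedback inhibitor, was at 671 and 683 in tip and 749.9 and 821 in stalk (-0.21 ± 0.23, SE; limma, unadjusted p = 0.39). Sp5, a zinc finger target, was at 210 and 321 in tip and 166 and 116 in stalk. Lgr5, an R-spondin receptor, was under the highest array median in both groups, at 88.8 and 87.1 in tip and 41 and 3.23 in stalk.

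Secreted Wnt antagonists, listed together with the membrane receptor Kremen1, held members with opposite directions. Of these, 5 of 8 lay above 0, with a median of 0.10, and -0.06 with a stricter filter. Dkk3, of the Dickkopf family, had close replicates at 501 and 502 in tip and 289.8 and 286 in stalk (0.75 ± 0.26, SE; limma, unadjusted p = 0.017), and 0.80 by its other probe set. Sfrp2, a secreted frizzled-related protein, was at 955 and 1074 in tip and 2168 and 1327 in stalk (-0.73 ± 0.26, SE; limma, unadjusted p = 0.019), and -0.38 without stalk replicate 1.

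Hedgehog pathway genes lay below 0 in 9 of 10 members, with a median of -0.22. Both stalk arrays were higher in 6, against 17.4% of all genes tested. Hhip, a target that binds and holds back hedgehog ligands, was at 263 and 205 in tip and 391 and 564 in stalk (-0.94 ± 0.30, SE; limma, unadjusted p = 0.011), and its 3 other probe sets gave -0.50 to -0.09. Cdon, a co-receptor, was at 365 and 201 in tip and 699 and 466 in stalk (-1.0 ± 0.33, SE; limma, unadjusted p = 0.014), and -0.61 without tip replicate 2. Gli1, a target and effector, was at 658 and 448 in tip and 596 and 933 in stalk, with overlap. Ptch1, the receptor and a target, was bright and level at 8094 and 7594 in tip and 7723 and 9949 in stalk, and its other probe set gave 0.57. Smo, the signal transducer, was the member above 0, at 6523 and 6211 in tip and 5647 and 5378 in stalk.

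**Figure D3:**
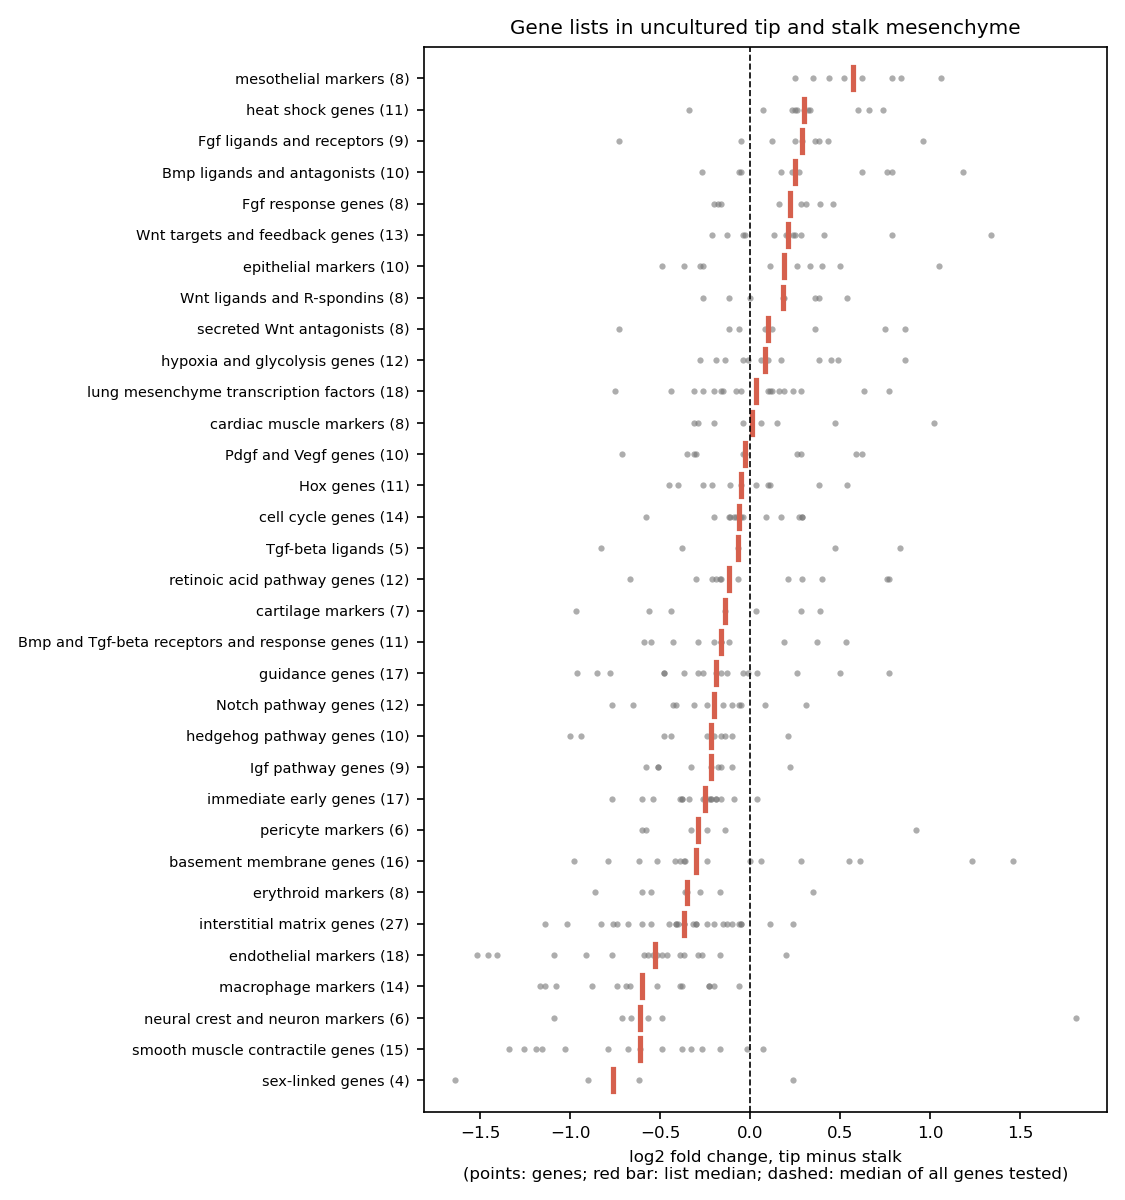
Log2 fold change (tip minus stalk, horizontal axis) of every tested member of the 33 gene lists, 1 grey point per gene, with the list median as a red bar and the number tested in brackets; the dashed line is the median of all 13223 genes, -0.004. Mesothelial markers have the highest median (0.57). Sex-linked genes, which pool Xist with Y-linked genes, have the lowest (-0.76), and smooth muscle, neural, macrophage and endothelial lists lie at -0.61 to -0.53.

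Receptors of platelet-derived growth factor, which mark mesenchyme and mural cells, were higher in stalk. Pdgfrb was at 6282 and 6020 in tip and 9816 and 8589 in stalk (-0.58 ± 0.19, SE; limma, unadjusted p = 0.011), and Pdgfra at 2531 and 2566 in tip and 3139 and 3392 in stalk (-0.35 ± 0.19, SE; limma, unadjusted p = 0.092). Their ligand Pdgfc was at 6533 and 3823 in tip and 3191 and 3279 in stalk, so both tip arrays exceeded stalk, tip replicate 1 by the most. Over the 10 Pdgf and Vegf genes, 4 lay above and 6 below 0, with a median of -0.03 that became 0.05 without tip replicate 1 and 0.25 with probe sets averaged per gene. Pericyte markers lay below 0 in 5 of 6, with a median of -0.29. The exception was Kcnj8, a potassium channel subunit, at 375 and 335 in tip and 153 and 197 in stalk (0.92 ± 0.30, SE; limma, unadjusted p = 0.012).

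Endothelial markers were lower in tip in 17 of 18 members, with a median of -0.53. Both stalk arrays were higher in 13, against 17.4% of all genes tested. An unadjusted p (limma) under 0.05 with stalk higher was reached by 7, against 3.52% of all genes. Without tip replicate 1 the median was -0.29. Ptprb, an endothelial phosphatase that restrains the angiopoietin receptor, was at 195 and 134 in tip and 490.1 and 495 in stalk (-1.46 ± 0.30, SE; limma, unadjusted p = 0.00064), and its other probe set gave -0.77. Sox17, a factor of arterial endothelium, was at 286 and 1270 in tip and 1611 and 2022 in stalk. Its log2 fold change of -1.52 ± 0.51 (SE) was -0.50 without tip replicate 1, and its other probe set gave -0.31. Ramp2, a co-receptor of adrenomedullin, was at 1010 and 1257 in tip and 1571 and 1819 in stalk. Kdr, the main Vegf receptor, was at 2070 and 1928 in tip and 2480 and 3198 in stalk. Pecam1 was dim, at 16 and 12.6 in tip and 112 and 59.3 in stalk, and Cdh5 overlapped at 254 and 459 in tip and 416 and 363 in stalk. Mmrn2, an endothelial matrix glycoprotein outside the list, had the smallest p of all genes, with 331 and 468 in tip and 1028 and 1058 in stalk (-1.34 ± 0.25, SE; limma, unadjusted p = 0.00035, adjusted p = 0.89). Its 3 other probe sets gave -1.38 to -0.74.

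Most blood cell markers also lay below 0, less evenly, but the summed erythroid signal did not separate the groups. All 14 macrophage markers lay below 0, with a median of -0.60. Both stalk arrays were higher in 4 of the 14, against 17.4% of all genes tested. Their summed signal was 1953 on tip replicate 1, against 5975 on tip replicate 2 and 5442 and 5792 in stalk. Without tip replicate 1 the median was 0.04. C1qb, a complement chain, was at 248 and 415 in tip and 628 and 493 in stalk, and Csf1r, the receptor of macrophage growth factor, was at 409 on tip replicate 1 and 1751 to 2383 on the others. Of 8 erythroid markers, 7 lay below 0, with a median of -0.35, and -0.15 without stalk replicate 1. Slc4a1, the red cell anion exchanger, was at 2546 and 1785 in tip and 4138 and 3662 in stalk (-0.86 ± 0.22, SE; limma, unadjusted p = 0.0032). The embryonic globin Hbb-y had no such order, at 45811 and 49437 in tip and 50044 and 27707 in stalk. Hba-x overlapped at 15496 and 15743 in tip and 22982 and 15730 in stalk. Hbb-bh1 overlapped at 19562 and 21880 in tip and 38778 and 18204 in stalk. The summed signal of the 9 erythroid markers on the array was 84414 and 89944 in tip and 117506 and 66701 in stalk. Outside the list, Hemgn, an erythroid nuclear protein, was at 486 and 396 in tip and 1639 and 934 in stalk, and Slc25a37, the mitochondrial iron importer of erythroid cells, at 492 and 355 in tip and 1049 and 945 in stalk.

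Mesothelial markers were the list that leaned most to tip. All 8 tested lay above 0, with a median of 0.57. In 5 both tip arrays were higher, against 17.2% of all genes tested. Upk3b, a uroplakin of mesothelium, was at 3915 and 2550 in tip and 1892 and 1741 in stalk (0.79 ± 0.24, SE; limma, unadjusted p = 0.0075), and its other probe set also gave 0.79. Bnc1, a zinc finger protein of mesothelium, was at 1508 and 684 in tip and 455 and 493 in stalk (1.06 ± 0.34, SE; limma, unadjusted p = 0.011). Krt19 was at 502 and 391 in tip and 184 and 299.9 in stalk. Wt1, the mesothelial transcription factor, was at 871 on tip replicate 1 and at 386 to 439 on the other arrays. Tip replicate 1 was thus the brightest for all 4 genes, and without it the median was 0.39, Upk3b 0.48 and Bnc1 0.51.

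**Figure D4:**
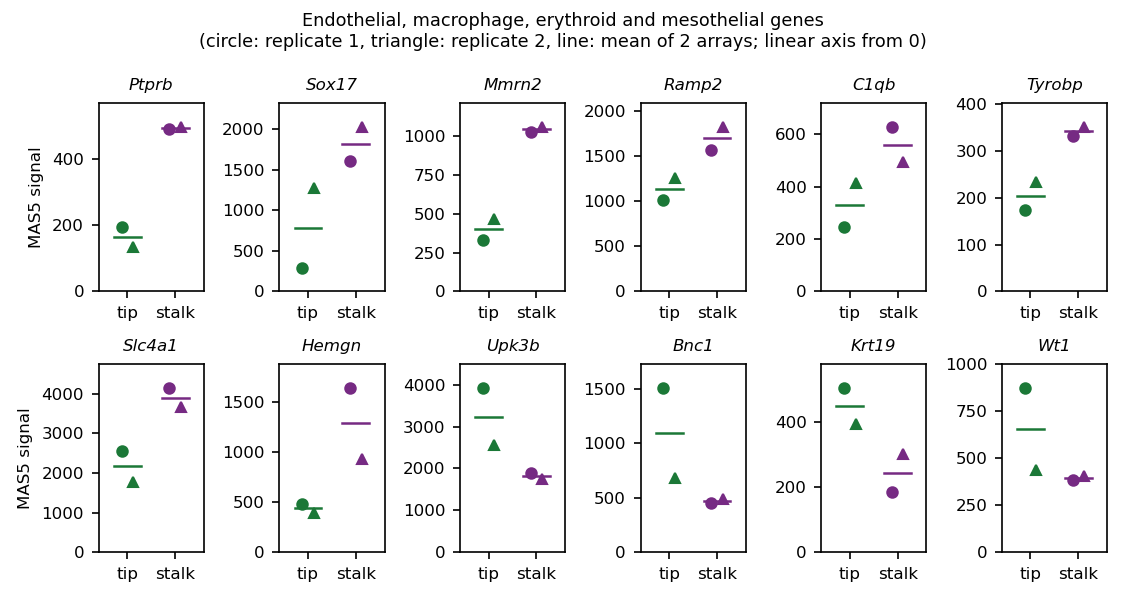
MAS5 signal (linear axis from 0) of endothelial (Ptprb, Sox17, Mmrn2, Ramp2), macrophage (C1qb, Tyrobp), erythroid (Slc4a1, Hemgn) and mesothelial (Upk3b, Bnc1, Krt19, Wt1) genes on the 2 tip and 2 stalk arrays; circles are replicate 1, triangles replicate 2 and lines group means. The first 8 genes lie lower in tip and the last 4 higher, with tip replicate 1 the highest mesothelial point.

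The genes with the smallest p among bright ones at least 2-fold apart also held members outside the lists. With stalk higher there was Smoc2, a secreted matricellular protein, at 182 and 106 in tip and 472 and 365 in stalk (-1.40 ± 0.33, SE; limma, unadjusted p = 0.0019). Dio2, the enzyme that activates thyroid hormone, was at 80 and 111 in tip and 343 and 290.1 in stalk (-1.50 ± 0.33, SE; limma, unadjusted p = 0.0012), although its other probe set gave -0.16. Prickle2, of the planar polarity pathway, was at 405 and 559.8 in tip and 960.1 and 1045 in stalk. Ell2, a transcription elongation factor, was at 234 and 215 in tip and 487 and 606 in stalk, and Acap2, a regulator of Arf6, at 1263 and 1025 in tip and 1903 and 2887 in stalk. Slc5a3, an inositol transporter, had -1.12 ± 0.25 (SE) from 1004 and 814 in tip and 1625 and 2441 in stalk, but its 2 other probe sets gave 0.16 and 0.81.

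Genes with tip higher included several regulators and structural proteins. Arhgap22 was at 591 and 423 in tip and 226 and 192 in stalk (1.16 ± 0.29, SE; limma, unadjusted p = 0.0027). Dsc2, a desmosomal cadherin, was at 540.2 and 292 in tip and 162 and 134 in stalk. Tnni1, slow troponin I and a member of the cardiac list, was at 485 and 602 in tip and 217 and 296 in stalk. The zinc finger gene Zfp52 was at 379 and 403 in tip and 165 and 143 in stalk, with 0.68 by its other probe set. Rsl1d1, a nucleolar protein, was at 2364 and 2188 in tip and 1539 and 789 in stalk. The other 3 chosen by the same rule lay closer to background. Cacna1a was at 233 and 266 in tip and 109 and 96.2 in stalk, and its 2 other probe sets gave -0.04 and 0.96. Tafa2 was at 207 and 195 in tip and 83 and 58.8 in stalk. Art1 was at 176 and 269.6 in tip and 12.6 and 77.7 in stalk (1.93). For Art1 the other probe set gave 0.16, and raising dim values to the highest array median gave 0.95.

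Proliferation genes did not separate the groups as a list. Of 14 tested, 5 lay above and 9 below 0, with a median of -0.06 that turned to 0.03 to 0.09 without tip replicate 1 or either stalk array. Mki67, the Ki-67 antigen, was the exception by p, at 4407 and 4802 in tip and 6997 and 6793 in stalk (-0.58 ± 0.18, SE; limma, unadjusted p = 0.010). Top2a, which is also expressed in dividing cells, was at 8653 and 11680 in tip and 11801 and 9185 in stalk, and Rrm2, a subunit of ribonucleotide reductase, was higher in tip at 21849 and 21459 against 17738 and 18080 in stalk.

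Immediate early and heat shock genes, listed here as handling genes, and sex-linked genes differed between arrays of the same group. Fos, an immediate early gene, was at 3781 and 278 in tip and 247 and 7194 in stalk, and Hspa1b, an inducible heat shock gene, was at 34222 and 1274 in tip and 964 and 17889 in stalk. Tip replicate 1 and stalk replicate 2 were the high arrays for both genes. The immediate early list had 16 of 17 members below 0 and a median of -0.25, which ran from -1.20 without stalk replicate 1 to 0.70 without stalk replicate 2. Heat shock genes had 10 of 11 above 0 and a median of 0.30. Xist, expressed from the inactive X chromosome of females, was at 991 and 4379 in tip and 7275 and 5972 in stalk (-1.64 ± 0.51, SE; limma, unadjusted p = 0.0096), so both stalk arrays were higher. Its log2 fold change was -0.59 without tip replicate 1 and -2.70 without tip replicate 2. Eif2s3y, a Y-linked gene, was at 2200 and 263 in tip and 594 and 722 in stalk. Tip replicate 1, the array with the lowest Acta2 and macrophage values, therefore also had the lowest Xist and the highest Eif2s3y signal. It was not the highest array for the other Y-linked genes tested. Kdm5d was at 269 and 73.6 in tip and 199.8 and 284 in stalk. Uty was at 215 and 44.4 in tip and 244 and 194 in stalk. The part of handling and sex in the gene differences was not tested.

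**Figure D5:**
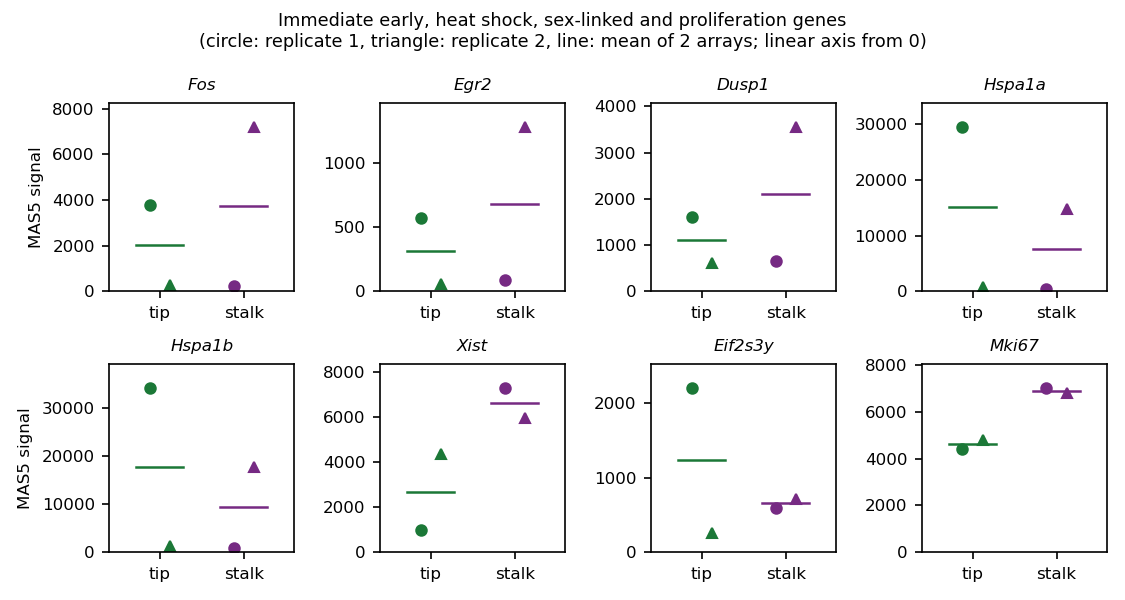
MAS5 signal (linear axis from 0) of immediate early (Fos, Egr2, Dusp1), heat shock (Hspa1a, Hspa1b), sex-linked (Xist, Eif2s3y) and proliferation (Mki67) genes on the 2 tip and 2 stalk arrays; circles are replicate 1, triangles replicate 2 and lines group means. The first 5 genes are high on tip replicate 1 and stalk replicate 2 and low on the other arrays, while Mki67 has close replicates.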

How the data were processed

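RNA of uncultured tip and stalk mesenchyme was measured on 2 arrays each, grouped by the sample titles. The authors deposited linear intensity values made with MAS5 and Affymetrix Expression Console, per the submitters' processing notes. Their versions were not given in the sources used here. Detection calls were not used. Of 45101 probe sets, 64 are controls, 34945 have 1 symbol, 932 several and 9160 none. RefSeq (GRCm38.p6) matched 34741 by gene identifier, with 0 symbols changed. Probe sets over 56.88 (the 40th percentile of the 4 arrays) on at least 2 arrays were kept, and a gene was its probe set with the highest mean. Values were fitted as log2(intensity + 27), 27 being the 25th percentile, by limma (version 3.58.1, under R 4.3.3) with an intensity trend in eBayes (two-sided, Benjamini-Hochberg, threshold 0.05), without covariates. The spread came from these 4 arrays only, with 2 residual and 7.89 prior degrees of freedom. The number of arrays limits the precision. The fit was checked on simulated data.

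Text values are named by a rule: per direction the 10 genes with the smallest unadjusted p among those at least 2-fold apart, without overlap and with a mean of at least 200 in the brighter group, leaving out predicted and clone-named genes; from each of the 33 lists up to 4 members at an unadjusted p under 0.05, or the 2 largest differences; and a fixed set of 32 genes. Other list members were named after their values were seen, to show how a list varied. The members and lists were chosen with earlier results of these data known. Alternatives changed the pseudocount, filter, normalization, variance model, probe set choice, arrays and replicate block. Plots used matplotlib 3.10.9 (Python 3.11.15).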

Additional observations from a re-analysis of the deposited data

How the results depend on the processing

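The count of 0 genes past an adjusted p of 0.05 (limma) was also found with each other pseudocount, filter, normalization, variance model and probe set choice, with all 8 arrays in the fit, at an adjusted p under 0.1, and with the replicate block, which gave 0 genes, 655 at an unadjusted p under 0.05 and 325 at 2-fold without overlap. Same-numbered arrays did not deviate together (r = -0.104 across genes), so the numbers were not taken as pairs. A crossed pairing, chosen after seeing the data, gave 0 and 930 genes. Leaving out 1 array gave 0 to 20 genes, 18 without tip replicate 2 and 20 without stalk replicate 1. The lone array left in a group was then assumed to vary like the other group. The unadjusted count of 730 was 102 with all 8 arrays and 528 to 1056 with 1 array left out. The count at 2-fold without overlap, 325, was 656 with a pseudocount of 1, 43 with 100, 516 with no filter, 106 with a stricter filter, 87 with values raised to the highest array median, and 523 to 778 with 1 array left out, where fewer arrays can overlap.

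Of 115 genes named by the rule, 100 kept their direction over 18 alternatives. Over leaving out 1 array, the others ran from -1.81 to 0.60 (Dusp1), -2.54 to 0.99 (Egr2), -1.23 to 1.71 (Eif2s3y), -0.25 to 1.02 (Etv4), -0.27 to 1.03 (Fgf9), -2.74 to 1.98 (Fos), -0.21 to 0.52 (Foxf1), -0.16 to 0.22 (Hoxa5), -1.93 to 3.40 (Hspa1a), -1.70 to 3.02 (Hspa1b), -0.02 to 1.01 (Krt8), -0.34 to 0.02 (Ptch1), -0.19 to 0.04 (Tbx5) and -0.25 to 0.00 (Wnt5a). Averaging probe sets per gene gave 0.21 for Ptch1, 0.25 for Tbx4 and 0.08 for Wnt5a, quantile normalization gave -0.01 for Hoxa5, and the raised dim values gave -0.03 for Etv4. The cause was not tested. Of the 33 list medians, 17 kept their sign under all 20 alternatives. Signals near the array medians, 76.5 to 99.8, cannot be told from background here.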

Other observations

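Genes of position and guidance gave values that belong to no pathway above. Hox genes, which mark position along the body axis, had 5 of 11 tested members above and 6 below 0, with a median of -0.05, and 0.08 without stalk replicate 2. Hoxa5, a regulator of lung mesenchyme, was at 5042 and 6577 in tip and 5466 and 5813 in stalk. Hoxa3 was at 393 and 441 in tip and 325 and 237 in stalk, while Hoxb6 was at 1060 and 1025 in tip and 1383 and 1496 in stalk, each without overlap. Of 17 guidance genes, 13 lay below 0, with a median of -0.19. Both stalk arrays were higher in 9, against 17.4% of all genes tested. Sema6d, a transmembrane semaphorin, was at 583 and 847 in tip and 1159 and 1684 in stalk (-0.96 ± 0.27, SE; limma, unadjusted p = 0.0052), but its 2 other probe sets gave 0.00 and 0.38. Sema5a was at 252 and 254 in tip and 488 and 469 in stalk, with -0.48 by its other probe set. Slit3, a secreted repellent, was at 355 and 228 in tip and 393 and 654 in stalk.

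Igf pathway genes lay below 0 in 8 of 9, with a median of -0.22. Igf1r, the receptor, was at 1423 and 1255 in tip and 2338 and 1719 in stalk, and its 4 other probe sets gave -0.68 to -0.13. Igf2r was at 4485 and 3393 in tip and 5768 and 5387 in stalk. Notch pathway genes lay below 0 in 10 of 12, with a median of -0.20, among them Notch4, an endothelial receptor, at 159 and 172 in tip and 304 and 299 in stalk. Retinoic acid genes had 5 of 12 above and 7 below 0 (median -0.12, and 0.11 without tip replicate 1), with Rbp4, a retinol carrier, at 328 and 466 in tip and 187 and 257 in stalk. Hypoxia and glycolysis genes had 7 of 12 above and 5 below 0 (median 0.08, and -0.05 without tip replicate 1), with Egln3, an oxygen-sensing hydroxylase, at 433 and 515 in tip and 305 and 202 in stalk. Cartilage markers had 3 of 7 above and 4 below 0 (median -0.14, and 0.09 without tip replicate 2). Col9a1 was at 273 and 287 in tip and 697 and 474 in stalk (-0.97), but its other probe set gave -0.10. Sox9 was at 198 and 219 in tip and 424 and 240.1 in stalk (-0.56), but its other probe set gave 0.23. Cardiac muscle markers had 4 of 8 above and 4 below 0 (median 0.01, and -0.16 without tip replicate 2). Neural crest and neuron markers had 1 of 6 above and 5 below 0 (median -0.61, and -0.12 without tip replicate 1). Sox10, of neural crest, was at 117 and 125 in tip and 12.2 and 18.6 in stalk. Ednrb, an endothelin receptor, was at 663 and 1084 in tip and 1303 and 2598 in stalk (-1.09). Its 2 other probe sets gave -0.12 and 0.23. Sex-linked genes had 1 of 4 above and 3 below 0, with a median of -0.76, which was 0.07 without tip replicate 2 and -1.32 without tip replicate 1. The list pools Xist, expressed in females, with Y-linked genes, so neither its median nor its signs measure a lean by sex.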
